A study of Mus musculus with 2 samples.

Results

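The genes described here are 10 genes of lipid handling in phagocytes, Apoe, Lpl, Trem2, Gpnmb, Cd36, Abca1, Fabp4, Fabp5, Plin2 and Pltp, named by symbol out of the 32285 genes of the files, and all 10 were found. They were read in the myeloid cells of mouse skin, 4306 of 16487 kept cells in one library and 2096 of 7579 in the other, which were sorted into 12 types by marker genes that include none of the 10. The study gave wild-type C57BL/6 mice an anti-Gr-1 antibody, which binds Ly6G on neutrophils and Ly6C on monocytes, or an isotype control antibody. Doses were given on alternate days from postnatal day 4 to day 14. Live cells bearing CD45, the surface protein of blood-derived cells, were sorted at day 15 from collagenase-digested skin and profiled by droplet sequencing of RNA 3′ ends. Each treatment is represented by a single library, made from the joined cells of 4 to 7 animals. There was thus no replicate, and no difference between treatments was tested. Ptprc, the gene of CD45, had a unique molecular identifier (UMI, 1 captured RNA molecule) in 91.0% of the kept isotype control cells and 94.8% of the kept anti-Gr-1 cells.

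Phagocytes take up lipid from dying cells, lipoproteins and membranes, and must store, burn or export it. Cd36 and Trem2 are surface receptors for lipids, and Lpl splits the triglyceride of lipoproteins into fatty acids. Fabp4 and Fabp5 carry fatty acids within the cell, and Plin2 coats the droplets in which neutral lipid is stored. Abca1 moves cholesterol out of the cell to acceptors such as apolipoprotein E, the product of Apoe, and Pltp transfers phospholipid between lipoproteins. Gpnmb is a membrane protein of lysosome-rich and lipid-laden macrophages and of pigment cells.

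The isotype control library held 125253392 UMIs in 21311 barcodes and the anti-Gr-1 library 85142470 UMIs in 9110 barcodes, with a median of 5081 and 7908 UMIs per kept cell. The type names stand for sets of marker genes, whose gating rule was set after the data had been seen, so each type is a marker-defined, "-like" population. Macrophages were cells with several of the complement genes C1qa, C1qb and C1qc, a minimum sum of their UMIs and further macrophage markers. They came to 679 isotype control and 257 anti-Gr-1 cells. They were split into resident macrophages with several of Lyve1, Folr2, Timd4 and Cbr2 (333 and 136 cells) and other C1q macrophages (346 and 121 cells). A population with few C1q UMIs, rich in Retnla and Fn1, gave 295 and 131 cells and is called Retnla Fn1 phagocytes. Classical monocytes (187 and 19 cells), non-classical monocytes (97 and 24) and neutrophils (122 and 6) were few in the anti-Gr-1 library, so their values are given side by side without a comparison, as are those of basophils (44 and 33). Type 2 dendritic cells (1564 and 688), type 1 dendritic cells (366 and 433), migratory dendritic cells (187 and 90), Langerhans cells (137 and 56) and mast cells (628 and 359) complete the list. Barcodes with several marker genes of keratinocytes, endothelium, fibroblasts, melanocytes or adipocytes were set aside (526 and 258). In the sexed macrophages, 45.6% were female in the isotype control library and 27.3% in the anti-Gr-1 library, and 61 barcodes occurred in both libraries.

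Levels are a gene's UMIs per 1000000 UMIs of the type and library (CPM), with 95% exact Poisson intervals, and ratios of CPM have 95% exact conditional intervals. Both kinds of interval cover counting error only and not the spread between mice or cells. The 3′ counts are not scaled to transcript length, so no gene's level is compared with another's. A ratio is called higher or lower past a fold of 1.5, a rule of size that replaces a test, for genes with at least 50 UMIs over both libraries. A gene can reach this minimum through a single library, and its call is then partly set by the minimum. The shares of all genes rest on the same minimum.

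Apoe was higher in resident macrophages than in any other type. It stood at 13000 CPM (12900 to 13200) in the isotype control library and 13600 (13400 to 13800) in the anti-Gr-1 library, and every resident macrophage had an Apoe UMI. Other C1q macrophages followed at 3760 and 4090 CPM. Mast cells, which are not macrophages, came next at 2950 (2880 to 3020) and 2850 (2780 to 2920), with Apoe UMIs in 86.8% and 95.5% of cells. Non-classical monocytes held 2210 and 985 CPM and classical monocytes 1160 and 201. Type 2 dendritic cells stood at 337 and 210, and Retnla Fn1 phagocytes at 85.9 (76.5 to 96.0) and 15.3 (10.6 to 21.3). The last level was close to that of T cells in the isotype control library and below it in the anti-Gr-1 library. T cells, which should not express Apoe, held 78.4 and 19.4 CPM, with UMIs in 22.8% and 11.7% of cells at a median depth of 4658 and 6626 UMIs. Apoe was thus very unequal between populations that are all called phagocytes, and the level in the Retnla Fn1 population was within 3 times the lowest type of each library, a range in which free RNA cannot be told apart from expression. The lowest type was type 1 dendritic cells at 50.6 (44.2 to 57.8) in the isotype control library and the Retnla Fn1 phagocytes themselves in the other. In the isotype control library the intervals of neighbouring types in the order did not overlap down to type 2 dendritic cells.

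**Figure D1:**
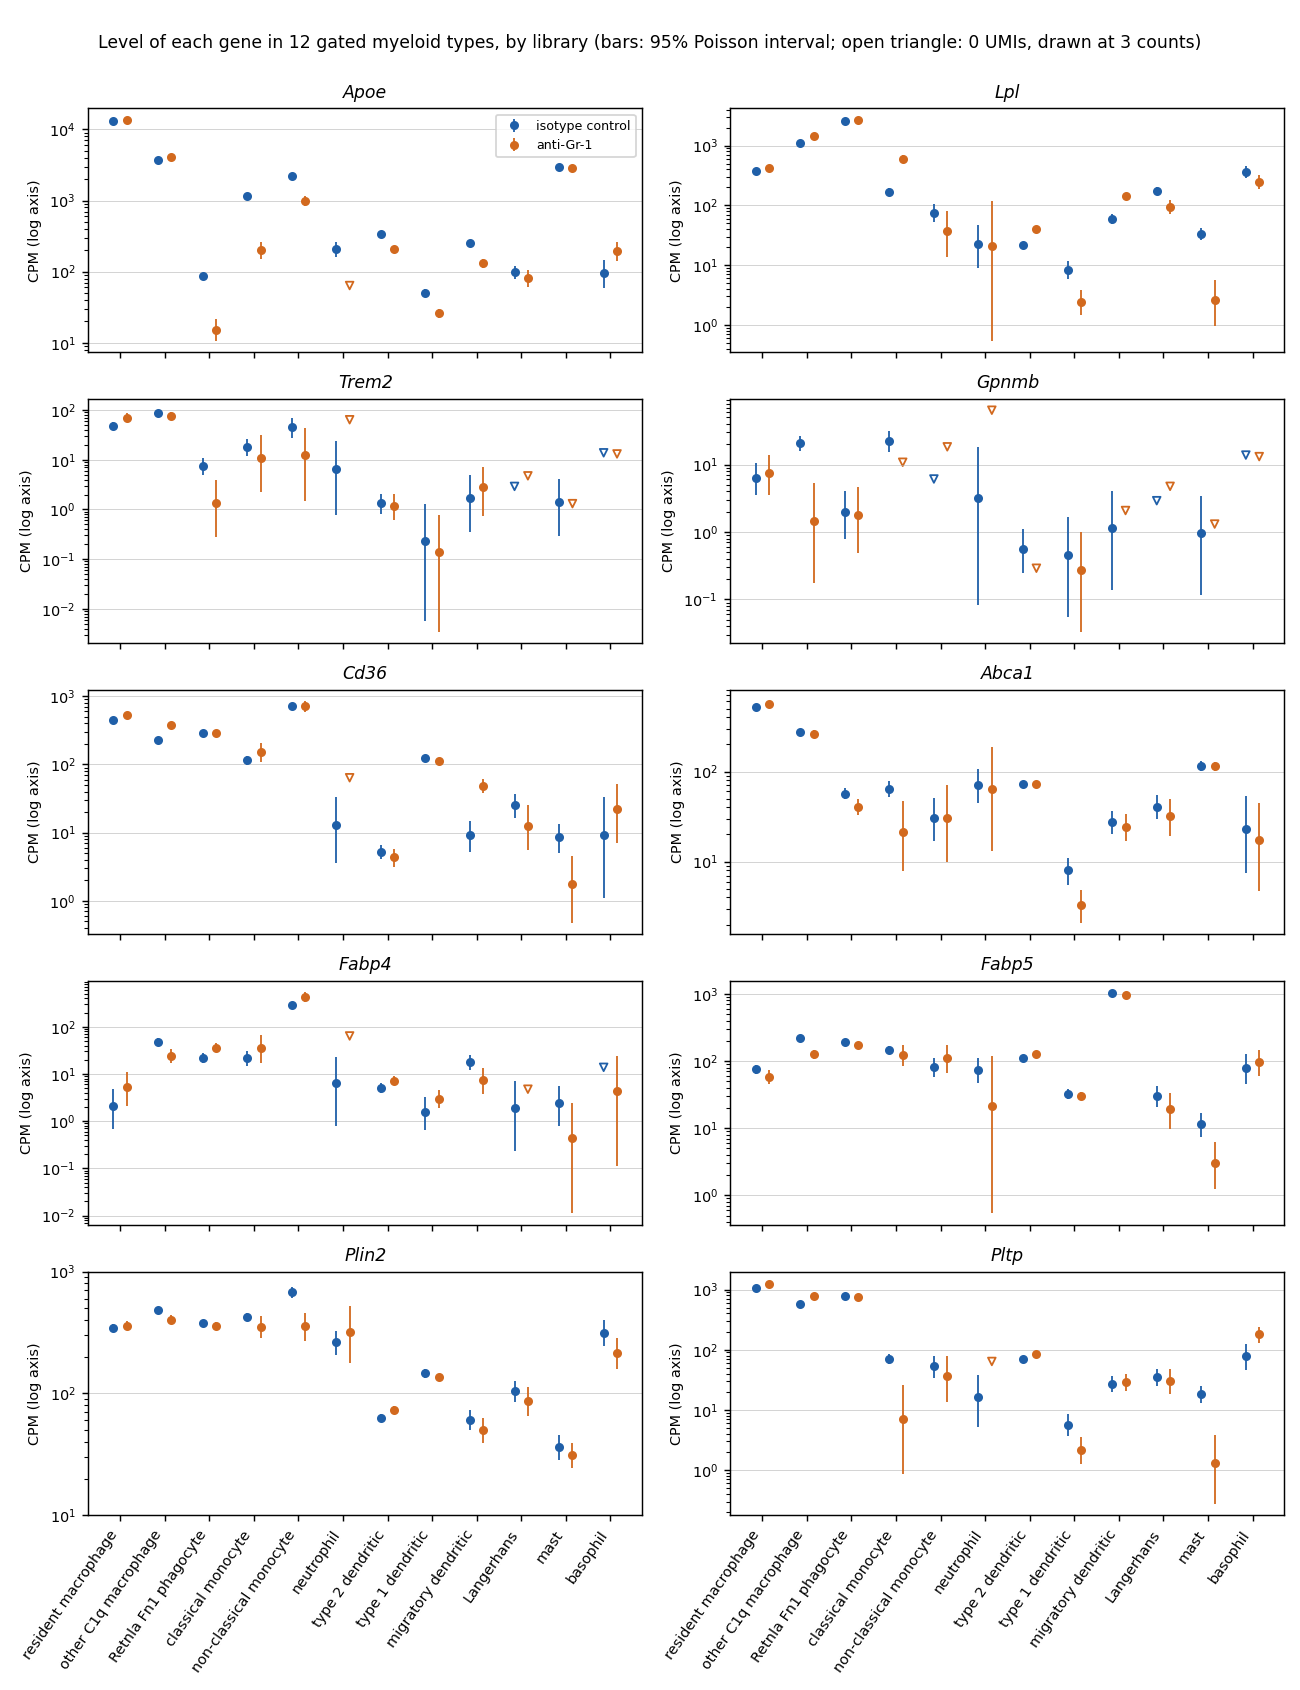
Level of each of the 10 genes in CPM (log axis) in 12 marker-gated myeloid types, in the isotype control (blue) and anti-Gr-1 (orange) libraries, with 95% Poisson intervals. Open triangles mark types with 0 UMIs, drawn at the level of 3 counts. Apoe, Abca1 and Pltp were highest in resident macrophages, Lpl in Retnla Fn1 phagocytes and Fabp5 in migratory dendritic cells in both libraries.

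Pltp, the phospholipid transfer protein, and Abca1, the cholesterol exporter, shared with Apoe the first place in resident macrophages. Pltp stood there at 1040 CPM (1000 to 1080) and 1240 (1180 to 1300), at 583 and 787 in other C1q macrophages, and at 771 and 763 in Retnla Fn1 phagocytes, while no other type exceeded 179 CPM. That value was from anti-Gr-1 basophils, where 1 cell gave 36 of 41 UMIs. Abca1 stood at 519 CPM (490 to 548) and 564 (524 to 606) in resident macrophages and at 275 and 261 in other C1q macrophages. Mast cells held 115 and 114 CPM of Abca1, type 2 dendritic cells 73.2 and 72.8, and Retnla Fn1 phagocytes 56.9 and 40.8, which did not exceed the 56.9 and 41.8 of T cells. Mast cells thus came next after the macrophages for Apoe and for Abca1 in both libraries, while their Pltp, at 18.5 and 1.31 CPM, lay below the 62.6 and 45.9 of T cells.

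In mm10 coordinates of the GENCODE annotation, Apoe lies at chr7:19696109-19699188, Abca1 at chr4:53030787-53159895, Pltp at chr2:164839518-164857711, Cd36 at chr5:17781690-17888801 and Plin2 at chr4:86648386-86670060, each on the minus strand. Lpl lies at chr8:68880491-68907448, Trem2 at chr17:48346401-48354147 and Gpnmb at chr6:49036546-49070929, each on the plus strand. Fabp4 at chr3:10204088-10208576 (minus) and Fabp5 at chr3:10012548-10016607 (plus) lie near each other. The windows of 250 bases before the start are printed for Apoe, Abca1 and Pltp, the genes highest in resident macrophages in both libraries (RefSeq, build GRCm38.p6, 5′ to 3′ on the gene's strand). Capitals mark the E-box CACGTG and the direct repeat 4 pattern, which is NGGTNA, 4 bases of any kind and NGGTCA. It is the arrangement that liver X receptors, the sterol-sensing receptors, are known to bind. Of the 10 genes, 7 have a window in the table.
Apoe, chr7:19699189-19699438, minus strand: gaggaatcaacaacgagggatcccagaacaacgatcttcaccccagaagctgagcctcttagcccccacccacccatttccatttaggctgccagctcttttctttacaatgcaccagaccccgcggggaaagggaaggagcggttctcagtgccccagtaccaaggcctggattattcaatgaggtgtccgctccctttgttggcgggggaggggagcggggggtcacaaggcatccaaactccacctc
Abca1, chr4:53159896-53160145, minus strand: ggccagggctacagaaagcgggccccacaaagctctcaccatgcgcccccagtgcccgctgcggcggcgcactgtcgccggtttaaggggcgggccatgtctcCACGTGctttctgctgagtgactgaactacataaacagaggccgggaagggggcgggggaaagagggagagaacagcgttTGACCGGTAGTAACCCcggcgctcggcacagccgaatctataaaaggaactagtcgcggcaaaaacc
Pltp, chr2:164857709-164857958, minus strand: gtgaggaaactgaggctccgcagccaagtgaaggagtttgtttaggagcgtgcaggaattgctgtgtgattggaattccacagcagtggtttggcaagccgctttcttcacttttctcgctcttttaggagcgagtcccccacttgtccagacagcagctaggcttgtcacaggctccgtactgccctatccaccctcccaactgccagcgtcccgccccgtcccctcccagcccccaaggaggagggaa
The Abca1 window holds the spaced pattern 67 bases before the start and the E-box 147 bases before it. On either strand the spaced pattern occurs in 0.177% of 32851 such windows and the E-box in 6.02%. The Apoe and Pltp windows hold neither, and neither holds the single core AGGTCA, which 14.0% of windows have and which could overlap the spaced pattern. Of the other members, Trem2, Plin2 and Cd36 have 1 such core each. The Cd36 window lies 52905 bases from the start of the gene in the coordinates above. A match describes these letters only.

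Lpl, lipoprotein lipase, was highest in Retnla Fn1 phagocytes, as an earlier look at these data had shown. It stood at 2620 CPM (2570 to 2680) and 2670 (2600 to 2740), and 90.5% and 96.9% of those cells had an Lpl UMI. Other C1q macrophages held 1120 (1080 to 1160) and 1470 (1400 to 1530), and resident macrophages 372 (348 to 397) and 415 (381 to 451). The order of the 3 populations for Lpl was therefore the reverse of that for Apoe in both libraries. Type 2 dendritic cells held 21.8 and 39.5 CPM, below the 60.1 of T cells in the isotype control library and above their 16.8 in the anti-Gr-1 library. Lpl values of several small types came from single cells. In the anti-Gr-1 library 190 of 203 UMIs in migratory dendritic cells, 87 of 164 in classical monocytes and 55 of 57 in basophils lay in 1 cell each, and in isotype control Langerhans cells 114 of 182 did.

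Lpl, Cd36, Fabp4 and Plin2 are also genes of adipocytes, which lie beneath the skin. The 8 adipocyte markers together gave 3.36 CPM or less in resident macrophages, other C1q macrophages, Retnla Fn1 phagocytes, type 2 dendritic cells, migratory dendritic cells and mast cells of either library, and Plin1, Plin4 and Lep were at 0 UMIs in all 6. Barcodes with at least 2 of these 8 markers had been set aside, which keeps the sum low by construction. It therefore cannot show whether adipocyte RNA adds to these levels. With all non-immune barcodes kept, Lpl stood at 460 and 439 CPM in resident macrophages, in place of 372 and 415. In other C1q macrophages it stood at 1100 and 1400, in place of 1120 and 1470.

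Cd36, a receptor for oxidised lipoproteins and long-chain fatty acids, was highest in non-classical monocytes, at 722 CPM (649 to 801) and 709 (586 to 851), with UMIs in 82.5% and 91.7% of cells. Resident macrophages held 453 and 532, Retnla Fn1 phagocytes 286 and 288, and other C1q macrophages 232 and 378. Type 1 dendritic cells, a cross-presenting type, held 124 (114 to 135) and 114 (106 to 122) CPM, spread over 67.8% and 76.0% of their cells with at most 11 UMIs in any. Type 2 dendritic cells held 5.20 and 4.35 CPM, against 7.18 and 1.47 in T cells. The classical monocyte value of 151 CPM in the anti-Gr-1 library came from 42 UMIs in 1 of 19 cells, and in migratory dendritic cells of that library 65 of 70 UMIs lay in 1 cell.

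Trem2, a receptor for lipids and apolipoproteins that signals through Tyrobp, was highest in other C1q macrophages, and C1q macrophages as a whole held 44.4% of its UMIs in the isotype control library and 64.8% in the anti-Gr-1 library. Mixed or ungated barcodes held 33.4% and 15.1%. Other C1q macrophages held 87.4 CPM (76.7 to 99.1) and 75.5 (61.6 to 91.6), resident macrophages 48.8 (40.3 to 58.5) and 70.1 (56.7 to 85.8), and non-classical monocytes 44.7 (28 to 67.7) and 12.2 (1.48 to 44.2). Resident macrophages and non-classical monocytes thus overlapped in the isotype control library. In the anti-Gr-1 library other C1q and resident macrophages overlapped, so the first place of other C1q macrophages was clear of counting error only in the isotype control library. UMIs of Trem2 were found in 24.9% of the isotype control macrophages and 33.1% of the anti-Gr-1 ones, against 0.487% and 0.148% of T cells. Thinning every macrophage to 1000 UMIs left 5.02% and 6.61%, so most macrophages had no Trem2 UMI at this depth. Langerhans cells had 0 Trem2 UMIs in 137 and 56 cells. Gpnmb had few UMIs, with 20.6 CPM (15.6 to 26.7) in other C1q macrophages of the isotype control library, from 57 UMIs in 18 cells, and 22.3 (15.4 to 31.1) in its classical monocytes, from 34 UMIs in 13 cells. Every other type of that library lay below 7 CPM.

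The fatty acid carriers differed from each other. Fabp4 was highest in non-classical monocytes, at 287 CPM (241 to 338) and 434 (339 to 548), in 42.3% and 54.2% of cells. Elsewhere it reached 48.4 and 24.2 CPM in other C1q macrophages and 22 and 36.3 in Retnla Fn1 phagocytes, always in under 8% of cells in types with at least 50 cells per library. Fabp5 was highest in migratory dendritic cells, which carry antigen to lymph nodes, at 1020 CPM (977 to 1070) and 972 (922 to 1020). There 67.4% and 81.1% of cells had an Fabp5 UMI, the top cell gave 491 of 1802 and 184 of 1403 UMIs, and without those UMIs the level was 744 and 845. The remaining types with an Fabp5 level above 100 CPM in both libraries were other C1q macrophages (221 and 125), Retnla Fn1 phagocytes (192 and 173), classical monocytes (147 and 122) and type 2 dendritic cells (109 and 125). Langerhans cells held 30.1 and 19.0, at or below the 37.4 and 35.9 of T cells.

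Plin2, the droplet coat protein, was the most even of the 10 across phagocytes. Its levels were 344 and 360 CPM in resident macrophages, 483 and 402 in other C1q macrophages, 379 and 360 in Retnla Fn1 phagocytes, 426 and 352 in classical monocytes, 677 and 355 in non-classical monocytes and 262 and 319 in neutrophils. Type 1 dendritic cells held 146 and 136, and type 2 dendritic cells 63.1 and 73.6, against 42.9 and 35.5 in T cells.

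C1q macrophages, although few, held 45.4% of all Apoe UMIs of the isotype control library and 48.8% of those of the anti-Gr-1 library. Retnla Fn1 phagocytes held 31.8% and 35.4% of the Lpl UMIs, against 13.5% and 15.2% in C1q macrophages and 38.8% and 35.7% in mixed or ungated barcodes. For Fabp5 the largest named share was that of dendritic cells, at 31.0% and 39.4%, beside 34.0% and 25.4% in mixed or ungated barcodes. Barcodes with non-immune markers held 20.2% and 26.1% of the Apoe UMIs. Keeping such barcodes in the gates would have raised Apoe in Langerhans cells from 98.1 to 1760 CPM and from 80.8 to 2340, through 20 and 13 more cells. The level of Apoe in Langerhans cells given here therefore rests on leaving them out.

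**Figure D2:**
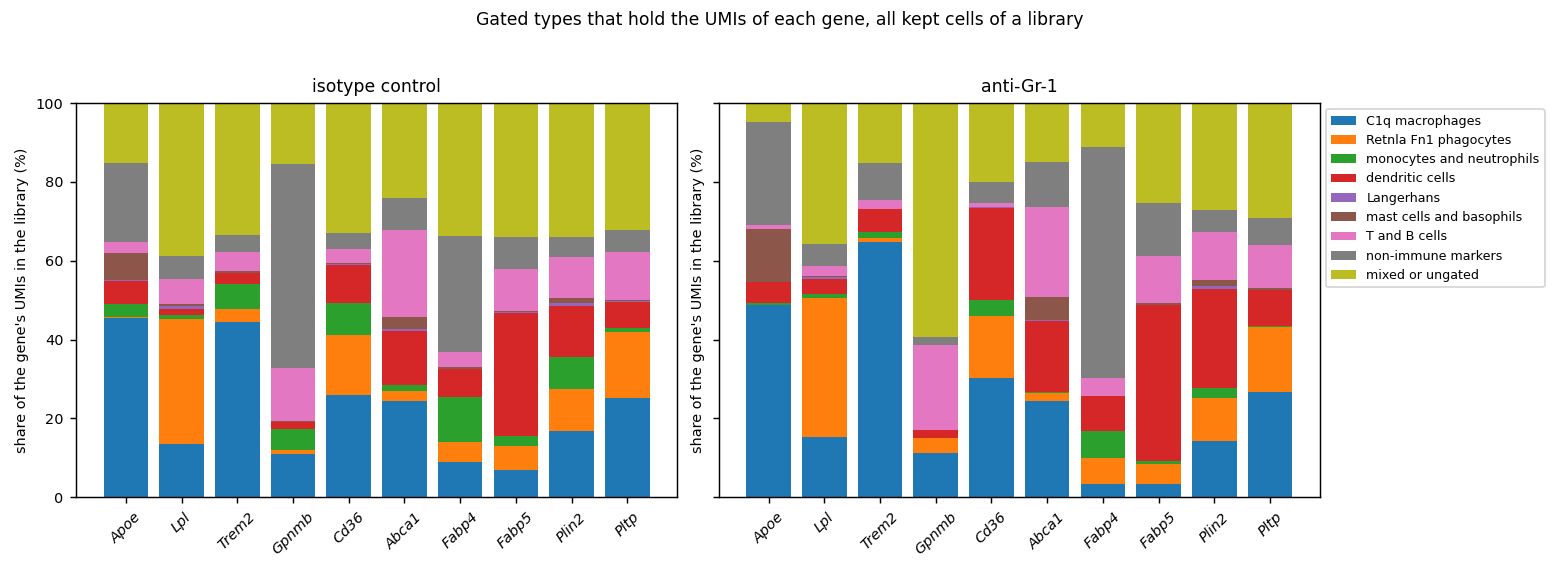
Share (%) of the UMIs of each gene that lay in each group of gated types, over all kept cells of the isotype control (left) and anti-Gr-1 (right) library. C1q macrophages held 45.4% and 48.8% of the Apoe UMIs and Retnla Fn1 phagocytes 31.8% and 35.4% of the Lpl UMIs.

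Resident and other C1q macrophages differed past 1.5-fold in the same direction in both libraries for 5 members. Apoe was 3.46-fold (3.39 to 3.54) and 3.32-fold (3.22 to 3.42) higher in resident macrophages, Abca1 1.89-fold and 2.16-fold, and Pltp 1.79-fold and 1.57-fold. Lpl, at a ratio of 0.332 (0.307 to 0.357) and 0.282 (0.257 to 0.310), and Fabp5, at 0.341 (0.287 to 0.403) and 0.467 (0.352 to 0.614), were lower there. Of 8 members with enough UMIs in each library, 3 were higher past 1.5-fold in both, against 9.41% of all 5811 genes compared, and 2 were lower, against 5.42%. Cd36 was higher at 1.95-fold in the isotype control library and 1.41-fold in the anti-Gr-1 library. Trem2 was lower at 0.558 (0.444 to 0.700) in the isotype control library but stood at 0.929 (0.695 to 1.24) in the other. Fabp4 had 5 UMIs in resident against 134 in other C1q macrophages of the isotype control library, and 7 against 33 in the anti-Gr-1 library. Gpnmb had 15 against 57 UMIs in the isotype control library (0.307, 0.161 to 0.549) and 10 against 2 in the other (5.09, 1.08 to 47.8), where 1 resident cell gave 7 of the 10. Plin2 differed by less than 1.5-fold in both. Within each library alone, 4 of 10 members were higher in the isotype control (16.2% of genes) and 5 lower (9.31%), and in the anti-Gr-1 library 3 of 8 were higher (15.5%) and 2 lower (11.0%). Apoe, Abca1 and Pltp were thus on the resident side in both libraries, and Lpl and Fabp5 on the other.

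Retnla Fn1 phagocytes and type 2 dendritic cells, which both have few C1q UMIs, differed more. Lpl was 120-fold (108 to 135) higher in the phagocytes in the isotype control library and 67.4-fold (61.0 to 74.7) in the anti-Gr-1 library. Cd36 was higher by 55 and 66.2-fold, Pltp by 10.9 and 9.05-fold, Plin2 by 6.01 and 4.90-fold, and Fabp4 by 4.30 and 5.01-fold. In the isotype control library the type 2 dendritic cell level of Lpl (21.8 CPM) was within 3 times the lowest large type, type 1 dendritic cells (8.44). Their level of Cd36 (5.20) was itself the lowest. The size of these folds therefore cannot be told apart from the level of free RNA. T cells held more of both genes (60.1 and 7.18) and do not measure free RNA alone. Set against T cells, Lpl in the phagocytes stood at 2620 against 60.1 CPM and Cd36 at 286 against 7.18. The 5 of 8 members passed 1.5-fold in both libraries, against 9.25% of 9001 genes. Apoe was lower in the phagocytes, at 0.255 and 0.0726 of the dendritic cell level, with 11.0% of genes lower in both. In the isotype control library alone 6 of 8 were higher (13.6% of genes) and 1 lower (16.1%), and in the anti-Gr-1 library 5 were higher (14.2%) and 2 lower (17.4%). The gate of type 2 dendritic cells leaves out cells with Fn1 UMIs above 1 or Retnla UMIs above 4, which sets the populations apart by construction for those genes. No gate uses any of the 10. High Lpl in the Retnla Fn1 population was, however, known from an earlier look at these data. Its place among the 5 of 8 is therefore not independent of how the population was chosen.

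**Figure D3:**
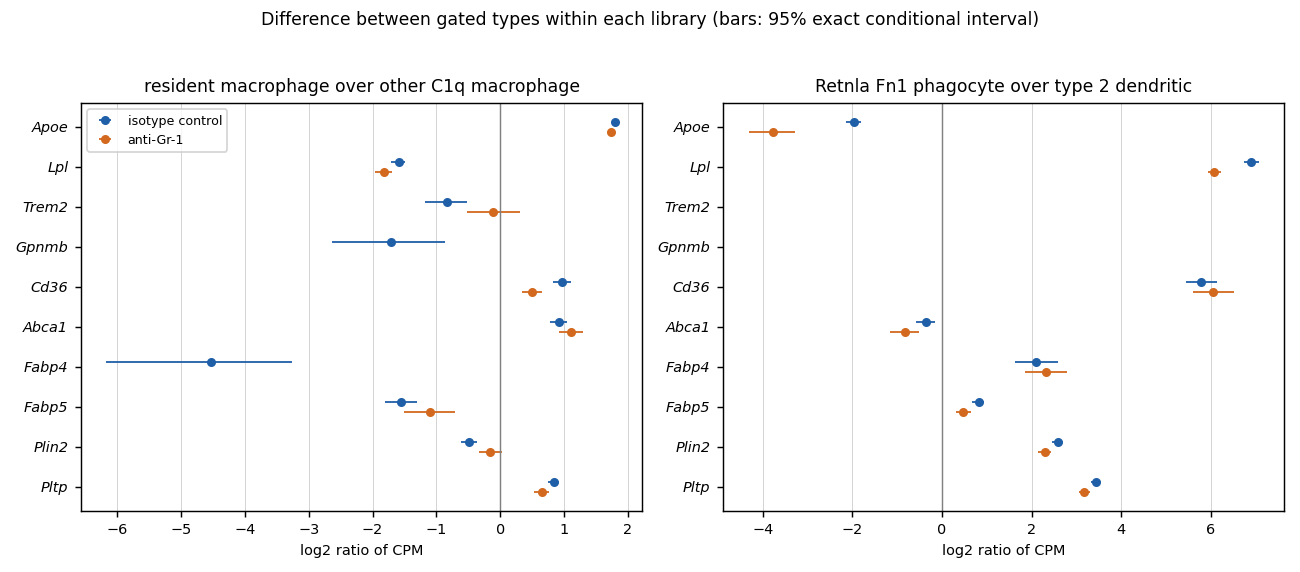
Log2 ratio of CPM between resident and other C1q macrophages (left) and between Retnla Fn1 phagocytes and type 2 dendritic cells (right), within the isotype control (blue) and anti-Gr-1 (orange) libraries, with 95% conditional intervals. Apoe, Abca1 and Pltp lie on the resident side and Lpl and Fabp5 on the other side in both libraries.

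Within a gate, cells were thinned to 1000 UMIs and divided by whether they had an Lpl UMI. In Retnla Fn1 phagocytes of the isotype control library, Cd36 had 0.349 UMIs per 1000 in the 209 cells with Lpl and 0.0824 in the 85 without. In the anti-Gr-1 library it had 0.416 in 89 cells and 0 UMIs in 42 cells. Other C1q macrophages showed the same direction for Cd36, at 0.346 against 0.110 and 0.600 against 0.254. In resident macrophages the direction differed between libraries, at 0.743 against 0.374 and 0.333 against 0.486. Apoe went the other way in other C1q macrophages, at 3.97 against 4.69 and 2.44 against 7.08 UMIs per 1000. These values describe cells of 1 library each.

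Between treatments, most of the 10 genes differed little in macrophages. Across the 679 isotype control and 257 anti-Gr-1 C1q macrophages, Apoe stood at 8040 and 8790 CPM (ratio 1.09, 1.08 to 1.11), Abca1 at 387 and 411 (1.06, 0.985 to 1.14), Trem2 at 69.5 and 72.8 (1.05, 0.876 to 1.25) and Plin2 at 419 and 381 (0.909, 0.843 to 0.980). Cd36 was 1.36-fold, Pltp 1.27-fold and Lpl 1.22-fold higher with anti-Gr-1. None of the 10 was higher past 1.5-fold, and the share among all 8751 genes was 2.37%. The 3 lower past 1.5-fold were Fabp5, Fabp4 and Gpnmb, against 6.36% of all genes. The median log2 ratio of the 10 was 0.074, beside -0.044 over all genes.

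Fabp5 stood at 154 CPM (143 to 165) in the isotype control macrophages and 91.7 (80.6 to 104) in the anti-Gr-1 ones, a ratio of 0.597 (0.515 to 0.689). Its ratio was 0.564 in other C1q macrophages and 0.773 (0.585 to 1.01) in resident ones. Fabp4 had 139 and 40 UMIs, a ratio of 0.548 (0.375 to 0.783), of which 1 isotype control cell gave 42. Without the UMIs of the top cell of each library its levels were 18.8 and 10.4 CPM. Gpnmb had 72 UMIs in 24 cells and 12 UMIs in 5 cells, a ratio of 0.317 (0.157 to 0.589). Barcodes with non-immune markers held 341 of the 657 Gpnmb UMIs of the isotype control library (51.9%) and 2 of the 106 of the anti-Gr-1 library (1.89%). T cells held 2.75 and 0.936 CPM of it, and the part of such RNA in the ratio was not tested. In other C1q macrophages its counts were 57 and 2, and in resident ones 15 and 10. In male macrophages alone, Gpnmb had 16 and 12 UMIs, a ratio of 0.949 (0.410 to 2.14). In female macrophages they were 25 and 0, and in male other C1q macrophages 12 and 2. The lower Gpnmb level was thus not seen in male macrophages as a whole, and its counts lay in few cells.

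Cd36 was the 1 member higher past 1.5-fold in other C1q macrophages, at 232 and 378 CPM (1.63, 1.45 to 1.83), where 3.66% of genes were. In those cells 3 of 10 members, again Fabp5, Fabp4 and Gpnmb, were lower, against 7.67% of genes. In resident macrophages none of 8 was higher (2.29% of genes) or lower (7.89%) past that fold. Cd36 stood at 453 and 532 in resident macrophages (1.17, 1.07 to 1.29). Without the UMIs of the top cell of each library (101 of 515 with anti-Gr-1), the levels in other C1q macrophages were 209 and 303. In female other C1q macrophages the levels were 217 and 229, from 115 and 23 cells.

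Lists of other genes also differed between the libraries in these cells. The fibroblast list stood at 145 and 95.3 CPM in other C1q macrophages and 142 and 105 in resident ones, with Pdgfra at 0 UMIs in all 4. In other C1q macrophages the neutrophil list stood at 47.7 and 16.9 CPM, with Ly6g at 0 UMIs in both. Genes of the immediate early response, which tissue digestion can induce, stood there at 23800 and 20700. The median depth of macrophages was 6724 and 9451 UMIs. Their part in the ratios was not tested.

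**Figure D4:**
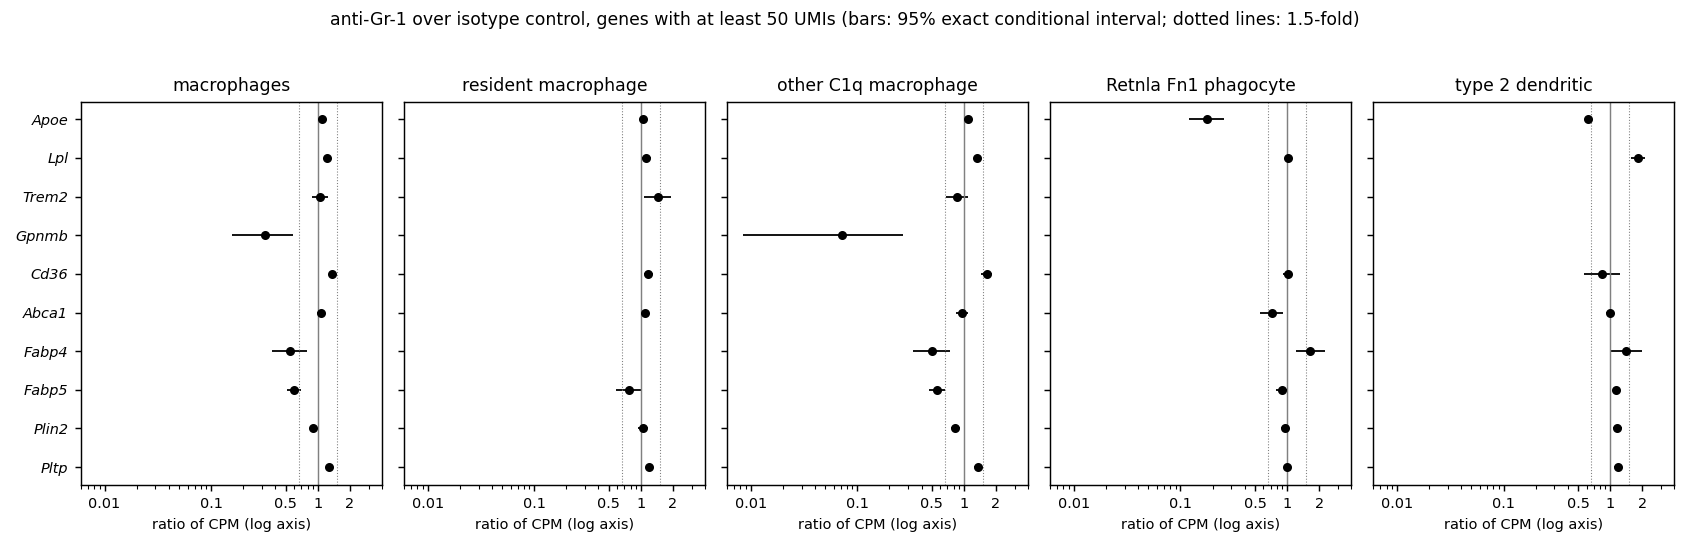
Ratio of CPM, anti-Gr-1 over isotype control (log axis), of each gene with at least 50 UMIs in all C1q macrophages, their resident and other parts, Retnla Fn1 phagocytes and type 2 dendritic cells, with 95% conditional intervals and dotted lines at 1.5-fold. Gpnmb, Fabp4 and Fabp5 lie left of the lower line in macrophages, and Apoe at 0.178 in Retnla Fn1 phagocytes.

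In Retnla Fn1 phagocytes 4 members were nearly equal in both libraries. Lpl had a ratio of 1.02 (0.984 to 1.05), Cd36 1.01 (0.912 to 1.11), Pltp 0.990 (0.932 to 1.05) and Plin2 0.950 (0.869 to 1.04). Fabp4 was higher past 1.5-fold (1.65, 1.20 to 2.28), from 79 UMIs in 21 cells and 81 UMIs in 10 cells, against 1.64% of genes. With cells thinned to 1000 UMIs its log2 ratio turned from 0.61 to -0.80. Apoe was lower (0.178, 0.121 to 0.254), against 6.85% of genes. T cells held 78.4 and 19.4 CPM of Apoe, and type 1 dendritic cells 50.6 and 26.1. The part of free RNA in the ratio was not tested. The median log2 ratio of 8 members was -0.044 and that of all genes -0.079.

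In type 2 dendritic cells, Apoe was again lower, at 337 and 210 CPM (0.624, 0.593 to 0.657), as were 4.92% of genes, and was above the T cell level of 78.4 and 19.4 in both libraries. With free RNA subtracted its log2 ratio was -0.54 in place of -0.67, short of 1.5-fold. Lpl was higher, at 21.8 and 39.5 CPM (1.82, 1.56 to 2.11), as were 0.851% of genes. Its UMIs lay in 8.63% and 8.43% of cells, and 1 anti-Gr-1 cell gave 83 of 409. In female type 2 dendritic cells alone its log2 ratio was -0.04, against 0.73 over all. The other 6 members compared differed by less than 1.5-fold, and the median of 8 was 0.194 beside -0.071 for all genes. In type 1 dendritic cells Cd36 (0.915), Plin2 (0.935) and Fabp5 (0.940) were nearly equal, while Apoe (0.515), Abca1 (0.410) and Lpl (0.291) were lower, against 5.95% of genes, and none of 6 was higher (1.28%). The level of these last 3 in type 1 dendritic cells was below that in T cells in the isotype control library. Free RNA was taken as the level of the lowest large type of each library. In the isotype control library this was type 1 dendritic cells themselves for all 3 genes, and with anti-Gr-1 also for Lpl and Abca1. Subtracting it took these levels to 0 by construction. The log2 ratios of Lpl and Abca1 thus came to 0 and that of Apoe, -0.84 before, to 1.65. The subtraction therefore cannot show what free RNA contributed here. In migratory dendritic cells the Fabp5 ratio was 0.950 (0.886 to 1.02). Of 7 members compared there, 2 were higher (Lpl and Cd36, with 2.95% of genes), each through 1 anti-Gr-1 cell that gave most of the UMIs, and 1 was lower (Apoe, 0.525, with 9.09% of genes). The log2 ratio of Apoe there was -0.91 over all cells and -0.03 in female cells, and T cells held 78.4 and 19.4 CPM of it.

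In mast cells, Apoe (0.966, 0.933 to 1) and Abca1 (0.991, 0.829 to 1.19) were nearly equal in both libraries. Lpl had 71 UMIs there with the control antibody, in 51 cells, and 6 with anti-Gr-1, in 6 cells (0.0780, 0.0277 to 0.178). It was the 1 of 4 members lower past 1.5-fold in mast cells, against 6.65% of genes, and none was higher (2.53%). Both levels lay below those of T cells. Langerhans cells had Apoe at 98.1 and 80.8 CPM (0.823, 0.576 to 1.16). Of 5 members compared in Langerhans cells, none was higher (2.99% of genes) and 1 was lower (8.42%), Lpl at 0.529, with 114 of its 182 isotype control UMIs in 1 cell and a log2 ratio of 0.29 in male cells against -0.88 over all.

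The share of cells called female differed between the libraries, at 45.6% and 27.3% of the sexed macrophages. Cells were called female by Xist UMIs without Y-linked UMIs and male by the reverse. In female macrophages (217 and 53 cells) Apoe stood at 7760 and 10500 CPM, and in male ones (259 and 141 cells) at 8730 and 8430. Plin2 stood at 461 and 179 in female and 408 and 468 in male macrophages. Lpl stood at 697 and 561 in female and 815 and 939 in male macrophages. Over all macrophages, the intervals of these 3 ratios lay on opposite sides of 1 in the sexes. Within resident macrophages this held for Apoe and Plin2 but not Lpl, and within other C1q macrophages for none of them. Resident cells were 102 of 217 and 30 of 53 female macrophages, and 139 of 259 and 70 of 141 male ones. The ratios over all macrophages thus also carry the mix of the parts. Abca1 (1.54, 1.33 to 1.79 in female and 0.916, 0.827 to 1.01 in male cells) and Trem2 (1.64, 1.10 to 2.40 and 0.981, 0.767 to 1.25) were higher past 1.5-fold in female macrophages, with male intervals that include 1. The ratios of Cd36 (1.23 and 1.46), Pltp (1.13 and 1.30) and Fabp5 (0.441 and 0.638) lay on the same side. The difference between the sexes was not tested, and how many mice of each sex a pool held is not given in the sources used here.

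**Figure D5:**
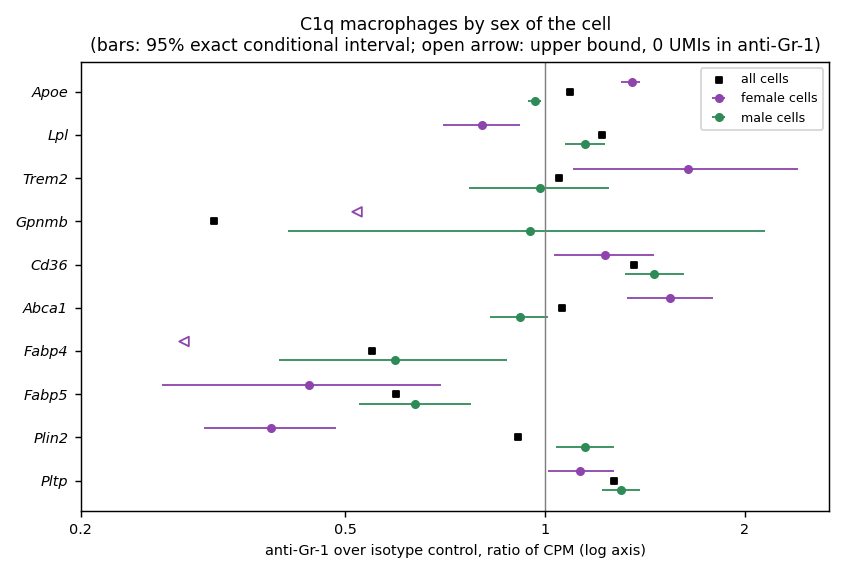
Ratio of CPM in C1q macrophages, anti-Gr-1 over isotype control (log axis), within cells called female (217 and 53) and male (259 and 141), with 95% conditional intervals. Black squares are all cells and open arrows are upper bounds where the anti-Gr-1 count was 0. Plin2 lies at 0.387 in female and 1.15 in male cells, and Apoe at 1.35 and 0.965.

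Genes of the same pathways were taken from 7 lists, whose counts in macrophages stand beside 6.36% of all genes lower and 2.37% higher. Among lipid uptake receptors, 3 of 10 measured genes were lower past 1.5-fold in macrophages with anti-Gr-1 and none higher. Among them were Olr1, the lectin-like receptor of oxidised lipoprotein, at 12.8 and 1.11 CPM (0.0865, 0.0174 to 0.264), and Lsr at 18.8 and 9.98 (0.530). In Retnla Fn1 phagocytes Olr1 and Lsr had ratios of 1.42 and 1.03. Among partners of Trem2 and Gpnmb, 1 of 15 was lower, the secreted phosphoprotein Spp1 at 34.8 and 6.29 CPM (0.181, 0.103 to 0.298), and Tyrobp, the signalling partner of Trem2, stood at 1220 and 1340. Of fatty acid use genes 2 of 16 were lower, the lipid-sensing receptors Pparg (20.0 and 12.2 CPM) and Ppard (20.8 and 13.3). Of cholesterol efflux genes 2 of 14 were lower, Scd2 and Stard4, and of droplet genes 1 of 9, Dgat1. In sterol synthesis, 1 of 10 was higher, Fdps at 28 and 27 UMIs, and 1 lower, Idi1. None of 4 lipoprotein genes passed 1.5-fold.

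Between populations, the lists stand beside larger shares of all genes. Of all genes, 9.25% were higher and 11.0% lower in Retnla Fn1 phagocytes than in type 2 dendritic cells in both libraries, and 9.41% higher and 5.42% lower in resident than in other C1q macrophages. Of 15 fatty acid use genes, 7 were higher in Retnla Fn1 phagocytes than in type 2 dendritic cells in both libraries and 1 was lower. The 7 include Pparg, at 44.3 and 31.4 CPM against 8.99 and 12, and Cpt1a, which admits fatty acids to mitochondria, at 95.3 and 116 against 50.3 and 58.9. Of 13 sterol synthesis genes, none was higher and 5 were lower. Among Trem2 and Gpnmb partners, 3 of 14 were higher in resident than in other C1q macrophages in both libraries, Cd63, Ctsb and Ctsl, and 4 were lower, Cd9, Lgals3, Itgax and Plcg2. The cathepsin Ctsb stood at 4470 and 4480 CPM in resident and 2350 and 2370 in other C1q macrophages, and the integrin Itgax at 3.79 and 2.24 against 33.9 and 39.6.

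The genes whose levels were most like those of each member were sought among 5269 genes over 21 profiles of 12 types, by Pearson correlation of log2(CPM + 5). The points share 2 libraries and the correlation is a description. Abca1 was most like Cltc (0.950) and Selenop, Apoe most like Flcn (0.903), Atp6v1a and Glul, and Pltp most like Timp2 (0.913), Abca9 and Ccl9. Lpl came nearest to Ccl9 (0.903), Adam15 and Axl. Trem2 came nearest to Acp2 (0.942), Tlr7 and Msr1, and Gpnmb to Eif2ak2 (0.802), Cfb and Ifit3. Fabp4 came nearest to Pparg (0.910), Tmem51 and Rhoa, and Fabp5 to Hivep1 (0.886), Abcg1 and Polr3c. Cd36 came nearest to Tbxas1 (0.884), Unc93b1 and Serpinb8, and Plin2 to Aldh3b1 (0.950), Lrrc25 and Unc93b1. Within the set, Apoe and Abca1 (0.811), Lpl and Pltp (0.888) and Cd36 and Plin2 (0.884) were each other's nearest members.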

How the data were processed

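Live CD45+ skin cells of 2 pools, 1 per treatment, were profiled by 3′ droplet RNA sequencing. The deposited values are whole UMI counts per gene and barcode, made by the authors with cellranger 4.0.0, per the file headers, on build mm10, per the submitters' processing notes. No column of other samples was left unused (0). A barcode was kept from 200 genes and 500 UMIs upwards if mitochondrial genes gave less than 10% of its UMIs. Doublets were scored with Scrublet in scanpy 1.11.5 (Python 3.11.15). Its automatic threshold marked 468 barcodes (5.82%) with anti-Gr-1, which were removed. With the isotype control it marked 32.47%, above a limit of 25%, so the 3055 highest scores were removed at 0.8% per 1000 barcodes. Of the kept UMIs there were 103150318 in the isotype control library and 74799281 in the anti-Gr-1 library.

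Cells were gated by marker genes. The gate rule was set after the values had been seen, and the 10 genes and all lists were chosen with earlier results of these data known. Barcodes that fitted several gates (9.07% and 3.51% of kept cells) or none (22.8% and 20.8%) were left out. Non-immune barcodes were those with at least 3 of 9 keratinocyte, 3 of 8 endothelial, 4 of 8 fibroblast, 2 of 7 melanocyte or 2 of 8 adipocyte markers. Levels, shares and ratios were computed from summed counts per gate with 95% exact intervals (scipy 1.17.1). Log2 ratios used a pseudocount of 5 CPM. Types with at least 50 cells in each library were compared. With 1 library per group no count model was fitted.

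The genes named were the 10 members in every gate, genes of each pathway list with the largest log2 ratio in macrophages or called in both libraries between types, and the 3 genes most like each member among those reaching 50 CPM. A few genes that this rule names are not reported here. The scripts were tested on simulated data. Alternatives were doublets kept, a stricter gate, a mitochondrial filter of 5%, cells thinned to 1000 UMIs, equal weight per cell, a pseudocount of 1 CPM, free RNA subtracted, no minimum of UMIs and cells of 1 sex. Keeping the non-immune barcodes was added after seeing the data.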

Additional observations from a re-analysis of the deposited data

Results flagged for a closer look

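In macrophages and mast cells the ratio of anti-Gr-1 over isotype control lay on opposite sides of 1, with 95% intervals that exclude 1 in both, in cells called female and cells called male for 4 gene and type pairs, and the difference between the sexes was not tested. Apoe in macrophages had a ratio of 1.35 (1.30 to 1.39) in female and 0.965 (0.944 to 0.986) in male cells. In resident macrophages it was 1.21 (1.16 to 1.25) and 0.884 (0.861 to 0.907). In other C1q macrophages it was 0.969 (0.895 to 1.05) in female and 1.25 (1.20 to 1.31) in male cells. Resident cells, which hold more Apoe, were 102 of 217 female macrophages with the isotype control and 30 of 53 with anti-Gr-1. Among male macrophages they were 139 of 259 and 70 of 141. Lpl in macrophages had 0.804 (0.703 to 0.918) in female and 1.15 (1.07 to 1.23) in male cells. The female interval included 1 in each part, at 0.863 (0.648 to 1.14) in resident and 0.953 (0.815 to 1.11) in other C1q macrophages. The male ratios there were 1.17 (1.01 to 1.35) and 1.14 (1.05 to 1.24). Plin2 in macrophages, the droplet coat gene, had 0.387 (0.307 to 0.484) in female and 1.15 (1.04 to 1.27) in male cells. In resident macrophages it had 0.479 (0.348 to 0.648) in female and 1.31 (1.13 to 1.52) in male cells. In other C1q macrophages it had 0.331 (0.230 to 0.463) and 1.03 (0.906 to 1.18). Apoe in mast cells had 1.25 (1.17 to 1.35) in female cells (191 and 55) and 0.849 (0.810 to 0.890) in male cells (205 and 211). The female anti-Gr-1 values rest on 53 macrophages and 55 mast cells.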

How the results depend on the processing

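The log2 ratios of members in each type were recomputed under up to 11 settings, fewer where UMIs or cells ran short, which gave 695 values. Of these, 561 moved by less than counting error, 128 moved by more, and 6 were ratios past 1.5-fold that changed sign. The settings differed widely. Values that moved by less than counting error were 13 of 48 in female cells, 33 of 66 when thinned and 34 of 56 in male cells. They were 66 of 66 with no minimum of UMIs and with a pseudocount of 1 CPM, and the shares of the other settings lay between. Ratios within 1.5-fold that changed sign, such as Lpl in macrophages (0.29, and -0.31 in female cells), are among the other values. All values here are log2 ratios of anti-Gr-1 over isotype control unless stated. The 6 were Lpl in migratory dendritic cells (1.17 as reported), at -2.63 with 1 more marker required and -0.02 with cells thinned to 1000 UMIs, Fabp4 in Retnla Fn1 phagocytes (0.61), at -0.80 when thinned, Apoe in type 1 dendritic cells (-0.84), at 1.65 with free RNA subtracted, Lpl in type 2 dendritic cells (0.73), at -0.04 in female cells, and Lpl in Langerhans cells (-0.88), at 0.29 in male cells. For Apoe in type 1 dendritic cells, the free RNA setting subtracts the type's own isotype control level, so the sign change is by construction. The median of the members in type 2 dendritic cells (0.19) was -0.06 when thinned, 0.40 with free RNA subtracted and -0.04 in female cells. In female cells alone the median was 0.23 in macrophages (0.07) and -0.35 in Retnla Fn1 phagocytes (-0.04), and 2 members rather than 0 were higher past 1.5-fold in macrophages. Of the members, 6 had a UMI in at least 50% of isotype control macrophages, and 1 did when thinned. Over the settings, macrophage values ran from -1.46 to -0.90 for Gpnmb (without the single-sex settings, which had under 50 UMIs, and in male cells its plain ratio was 0.949), -0.92 to -0.50 for Fabp4, -1.24 to -0.61 for Fabp5, 0.29 to 0.54 for Cd36 and 0.18 to 0.38 for Pltp, while Plin2 ran from -1.34 to 0.20. Apart from the constructions themselves (fewer cells or fewer UMIs), the cause was not tested. No paired analysis was possible because each treatment has 1 library. Depth limits Gpnmb, Trem2 and Fabp4, whose UMIs lay in 3.53%, 24.9% and 3.98% of isotype control macrophages.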
